A study of Mus musculus with 12 samples.

Results

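The 7 genes Angptl4, Fgf21, Creb3l3, Lpl, Lipc, Lipg and Gpihbp1 were examined in liver RNA-seq libraries from germ-free and conventionalized mice. They were taken by symbol from a table of 41128 genes, and each symbol matched 1 row. The 12 C57BL/6 mice had no engineered allele named in their labels, and all started life in sterile isolators. At weaning, around day 21, 6 littermates stayed in the isolators (germ-free, GF) and 6 were moved to cages with soiled bedding from the same facility, a route by which microbes are acquired (conventionalized, CV). All were killed at 6 weeks of age, after 3 weeks apart, and each condition held 3 males and 3 females by label, with 1 library per mouse. The microbes acquired were not described in the sources used here, and housing changed together with microbial status.

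Triglycerides travel in blood inside lipoproteins and are released by 3 related lipases that work on the vessel wall. Lipoprotein lipase (Lpl) hydrolyzes triglycerides of chylomicrons and very low density lipoproteins, hepatic lipase (Lipc) is made by hepatocytes and acts on remnants and high density lipoproteins, and endothelial lipase (Lipg) prefers the phospholipids of high density lipoproteins. Gpihbp1 carries Lpl across capillary endothelium, whereas Angptl4 inactivates Lpl and was first described as a fasting-induced, PPARα-responsive factor. Creb3l3, also called CREB-H, is a hepatocyte transcription factor held in the endoplasmic reticulum until it is cleaved, and Fgf21 is a liver hormone induced by fasting, PPARα, Creb3l3 and the integrated stress response.

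The values are read counts divided by 1 size factor per library, here called normalized read counts, and the whole reads behind them were recovered. Libraries held 5993619 to 10975691 recovered reads in GF mice and 8890529 to 15290835 in CV mice. A set of 7 loci, mostly ribosomal RNA (Lars2, mt-Rnr1, mt-Rnr2, Gm23935, Gm15564, Gm42418 and Mir6236), took 41.8 to 69.4% of reads in GF libraries and 5.39 to 21.9% in CV libraries. The part of this difference in the results was not tested, since group membership accounted for 95.3% of its variance and the share and the condition cannot be told apart. The library labelled CV male 3 went against its label, with an Xist value of 2382 and 0 reads from Y-linked genes, and values without it are given in the text for the condition effect over both sexes and in males. The median log2 change of all 11782 genes tested was 0.07. It was 0.62 when libraries were scaled to all their reads and -0.38 when they were scaled to reads outside the 7 loci.

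Promoter windows are shown for the called genes that rose and had one in the RefSeq table used (mouse build GRCm38.p6), each reaching from 250 bases before the transcription start to 50 after it. Capitals mark matches on either strand to 7 searched motifs, whose letters are given after the sequences.
Fgf21, chr7:45615441-45615740, minus strand: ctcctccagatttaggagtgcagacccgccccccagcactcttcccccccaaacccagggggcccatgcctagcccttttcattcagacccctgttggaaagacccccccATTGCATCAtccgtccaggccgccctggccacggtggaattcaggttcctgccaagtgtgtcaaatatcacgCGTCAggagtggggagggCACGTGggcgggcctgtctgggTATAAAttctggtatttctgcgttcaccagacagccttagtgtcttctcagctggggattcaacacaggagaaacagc
Lipc, first window, chr9:70952172-70952471, minus strand: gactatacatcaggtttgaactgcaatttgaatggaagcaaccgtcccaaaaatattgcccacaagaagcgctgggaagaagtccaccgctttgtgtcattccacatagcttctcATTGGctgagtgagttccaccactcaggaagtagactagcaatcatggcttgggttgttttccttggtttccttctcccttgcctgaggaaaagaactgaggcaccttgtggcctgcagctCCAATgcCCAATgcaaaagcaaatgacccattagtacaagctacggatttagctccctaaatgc
Lipc, second window, chr9:70934759-70935058, minus strand: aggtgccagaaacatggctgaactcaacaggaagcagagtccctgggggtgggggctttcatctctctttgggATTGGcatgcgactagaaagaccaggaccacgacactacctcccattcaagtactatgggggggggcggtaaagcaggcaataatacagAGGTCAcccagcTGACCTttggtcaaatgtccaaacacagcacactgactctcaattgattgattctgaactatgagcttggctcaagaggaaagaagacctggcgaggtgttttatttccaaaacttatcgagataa
The Fgf21 window held the amino acid response element (searched as TGATGNAAT) on the opposite strand, beginning 140 bases before the start, and 0.965% of the 32851 windows of this length in the table held that motif. A half-site of the cAMP response element (searched as TGACG) stood at -68 on the opposite strand and was held by 20.8% of all windows. The E-box (searched as CACGTG) stood at -50, beside 7.15% of windows that held one, and the TATA box (searched as TATAAA) stood at -28, beside 13.6%. The first Lipc window held only CCAAT boxes among the searched motifs, at -135, -14 and -7, and 37.4% of all windows held at least 1. The second Lipc window held a pair of nuclear receptor half-sites (searched as AGGTCA), at -88 and, on the opposite strand, at -76, a motif present in 16.3% of windows, and a CCAAT box at -177. The HNF1 half-site (searched as GTTAAT) was held by 7.10% of windows and by none of the 3 printed. No motif match overlapped another. The matches are letters in a window and were not measured as binding sites.

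Over both sexes 4 of the 7 genes differed between CV and GF mice at an adjusted p under 0.05 (limma on log2 of the value plus 1, Benjamini-Hochberg over all genes tested). Lipc and Fgf21 were higher in CV mice, Lpl and Lipg were lower, and Angptl4, Creb3l3 and Gpihbp1 did not pass the test. Of all genes tested 61.1% passed, 32.3% higher and 28.7% lower, so the count for the 7 genes was close to the background. The median change over the 7 genes was 0.17 on the log2 scale, beside 0.07 over all genes tested. Scaling changed the split: 5 were higher and 0 lower when libraries were scaled to all reads, and 1 was higher and 2 lower when they were scaled to reads outside the abundant loci. The calls over all genes moved the same way, to 50.3% higher and 13.7% lower in the first case and to 18.2% higher and 41.3% lower in the second. With the share of the abundant loci, or that of mitochondrial rRNA, as a covariate, 0 of the 7 passed, and 7 and 0 of all genes did.

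**Figure D1:**
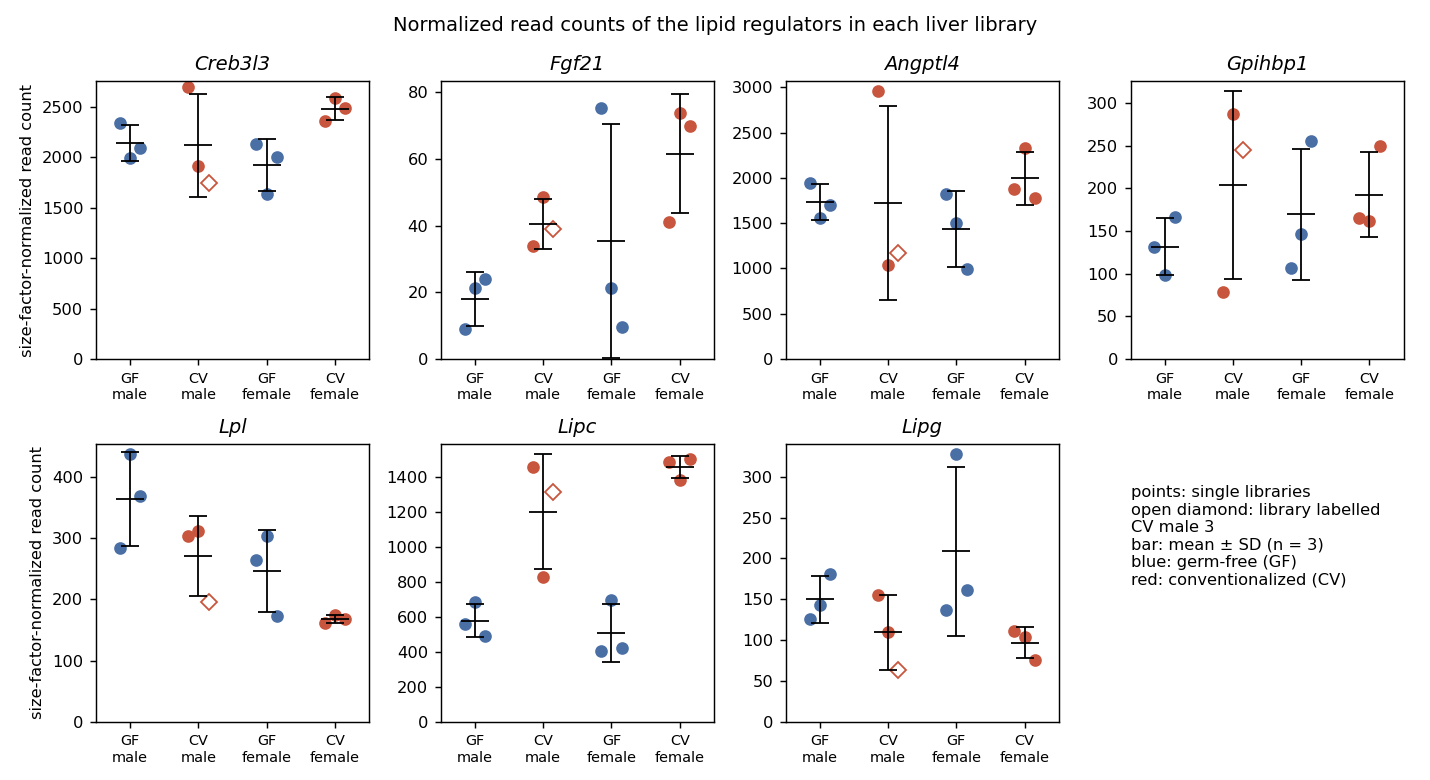
Normalized read counts (y axis, linear, from 0) of the 7 genes in each of 12 liver libraries, by condition and labelled sex (x axis), with mean ± SD bars (n = 3) and the library labelled CV male 3 as an open diamond. Lipc is the gene whose CV points (830.0 to 1507) all lie above its GF points (405 to 699.6).

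The hepatic lipase gene Lipc, located on chromosome 9 from 70798128 to 70952226 on the minus strand in GRCm38, showed the clearest difference. Its normalized read counts were 561, 684 and 493 in GF males, 405, 699.6 and 424 in GF females, 1459.9, 830.0 and 1317 in CV males, and 1487, 1387 and 1507 in CV females. Every CV library lay above every GF library, which was so for 31.3% of all genes tested in either direction, and 36.4% separated the same way within each labelled sex. The mean was 544 ± 127 in GF mice and 1331 ± 255 in CV mice (SD, n = 6 each), a 2.45-fold difference (log2 change 1.29 ± 0.19, SE; 95% interval 0.88 to 1.70; limma adjusted p = 3.48e-05). Without the library labelled CV male 3 the change was 1.25 (adjusted p = 1.01e-04). It was 1.02 ± 0.27 in males (adjusted p = 0.0123; 0.94 without that library, adjusted p = 0.0372) and 1.56 ± 0.27 in females (adjusted p = 2.07e-04). Lipc was thus the 1 gene of the 7 called in males, where 29.5% of all genes were called and 14.1% were higher, and the male call was lost without GF male 3 (0.92, adjusted p = 0.0583). The change stayed positive and past the threshold under scaling to all reads (1.85) and to reads outside the abundant loci (0.83), and after removal of a length and GC trend (0.79, adjusted p = 6.15e-04). Annotation placed 3 predicted genes over Lipc, and Gm25149 and Gm3436, those of them in the table, reached at most 3.99 and 4.48 normalized reads.

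Lipc is made by hepatocytes, and 7 of 8 hepatocyte markers were also higher in CV mice, with 0 lower (4 higher and 1 lower, Cps1, with scaling to reads outside the abundant loci). Their summed values ran from 105371 to 410820 in GF and from 374128 to 670105 in CV libraries, and none was at 0. Of all genes tested 32.3% were higher and 28.7% lower (18.2% and 41.3% with scaling to reads outside the abundant loci). Ahsg changed by 1.78 ± 0.33 and Serpinc1 by 1.67 ± 0.27, above the change of Lipc, whereas Hnf4a changed by 0.44 ± 0.17 and Cps1 by -0.34 ± 0.27 (adjusted p = 0.295). The part of this in the Lipc result was not tested. In these bulk samples a different number of cells of a type and a different amount of RNA per cell cannot be told apart.

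Endothelial lipase differed in the other direction. Lipg, on chromosome 18 from 74939322 to 74961263 on the minus strand, read 125, 142 and 181 in GF males, 137, 327 and 161 in GF females, 155, 109.7 and 63.6 in CV males, and 111, 103 and 75.3 in CV females. The groups did not overlap in females, where 64.9% of all genes did not overlap, but they overlapped in males, in which CV male 1 stood above GF males 1 and 2. Lipg fell by 0.77 on the log2 scale over both sexes (SE 0.25, 95% interval -1.29 to -0.24; adjusted p = 0.0133), or to 0.588 of the GF level. In males the change was -0.52 (adjusted p = 0.274; -0.18 without CV male 3, adjusted p = 0.732). In females it changed by -1.01 ± 0.35 (adjusted p = 0.0217), 1 of the 2 calls among the 7 genes there, beside 55.8% of all genes called (29.8% higher, as Lipc was, and 26% lower, as Lipg was). The female call rested on single mice, since it was lost without GF female 2, the highest library (-0.64, adjusted p = 0.117), and without CV female 3 (-0.84, adjusted p = 0.0931). Over both sexes the change was -0.21 (adjusted p = 0.468) with scaling to all reads, -0.60 (adjusted p = 0.0380) without the library labelled CV male 3 and -0.47 (adjusted p = 0.144) without CV males 2 and 3, the CV libraries with the highest share of abundant loci.

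Lpl, on chromosome 8 from 68880491 to 68907448 on the plus strand, read 285, 438 and 369.9 in GF males, 264, 303 and 173 in GF females, 304, 312 and 195 in CV males, and 162, 175 and 169 in CV females. CV females were tightly grouped and GF female 3 fell among them, so the conditions overlapped in each sex. Over both sexes Lpl changed by -0.47 ± 0.19 (95% interval -0.87 to -0.07; adjusted p = 0.0403), to 0.721 of the GF level. This call was near the threshold. It was lost in 8 of the 12 fits that left out 1 library (GF males 2 and 3, GF females 1 and 2, each CV female and CV male 3), with -0.36 (adjusted p = 0.113) when CV male 3 was out, and also with the length and GC trend removed (-0.33, adjusted p = 0.125). With scaling to all reads the direction turned (0.09, adjusted p = 0.737), whereas scaling to reads outside the abundant loci gave -0.93 (adjusted p = 2.39e-04). Within the sexes the change was -0.44 in males (adjusted p = 0.232; -0.22 without CV male 3, adjusted p = 0.604) and -0.51 in females (adjusted p = 0.116), where it passed without GF female 3 (-0.75, adjusted p = 0.0335).

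Adipose tissue and striated muscle are the main sources of Lpl in the body, and their markers were at or near 0. The 6 adipocyte markers summed to at most 28.3 in GF and 47.7 in CV libraries, Lep was at 0 in every library, and Adipoq reached 7.95. Of 7 striated muscle markers Ckm, Myh2 and Mb were at 0 throughout, and the sum reached at most 8.503. Of 8 Kupffer cell and macrophage markers 4 were higher in CV mice (Cd5l 1.03 ± 0.19, Vsig4 1.18 ± 0.19) and 0 lower, and their sums ranged from 974 to 1887 in GF and from 1110.1 to 2445 in CV libraries (7 higher with scaling to all reads, 2 with scaling to reads outside the abundant loci, 0 lower in each). Over all genes tested 32.3% were higher and 28.7% lower. These shares were 50.3% and 13.7% with scaling to all reads, and 18.2% and 41.3% with scaling to reads outside the abundant loci. The part of macrophages in the Lpl result was not tested.

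Because a ratio of 2 genes within a library does not depend on how the library is scaled, the lipases were also compared with each other, per kilobase of the longest annotated transcript. The ratio of Lipc to Lpl ran from 2.86 to 5.26 in GF mice and from 5.69 to 19.7 in CV mice, with no overlap. The difference was 1.77 on the log2 scale (two-sided exact permutation of condition within labelled sex, 400 relabellings, p = 0.005, the smallest this design allows; adjusted p = 0.0125 over 5 ratios). The ratio of Lipc to Lipg was 4.22 to 9.47 in GF and 14.9 to 40.9 in CV mice, higher in all 6 CV libraries by 2.07 on the log2 scale (exact permutation p = 0.005, adjusted p = 0.0125). Without the library labelled CV male 3 these differences were 1.62 and 1.85, each at the smallest p that 200 relabellings allow (0.005). The ratio of Lpl to Lipg differed by 0.30 (exact permutation p = 0.205). Relative to the other 2 lipase transcripts Lipc was thus higher in CV mice whatever the library scaling, while the shift between Lpl and Lipg did not pass the test. With the length and GC trend removed Lipc changed by 0.79, Lpl by -0.33 and Lipg by -0.81, and the ratios were not tested there. These genes had already been called in opposite directions. Of single genes 31.3% separated all 12 libraries, and no share over other gene pairs is given.

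**Figure D2:**
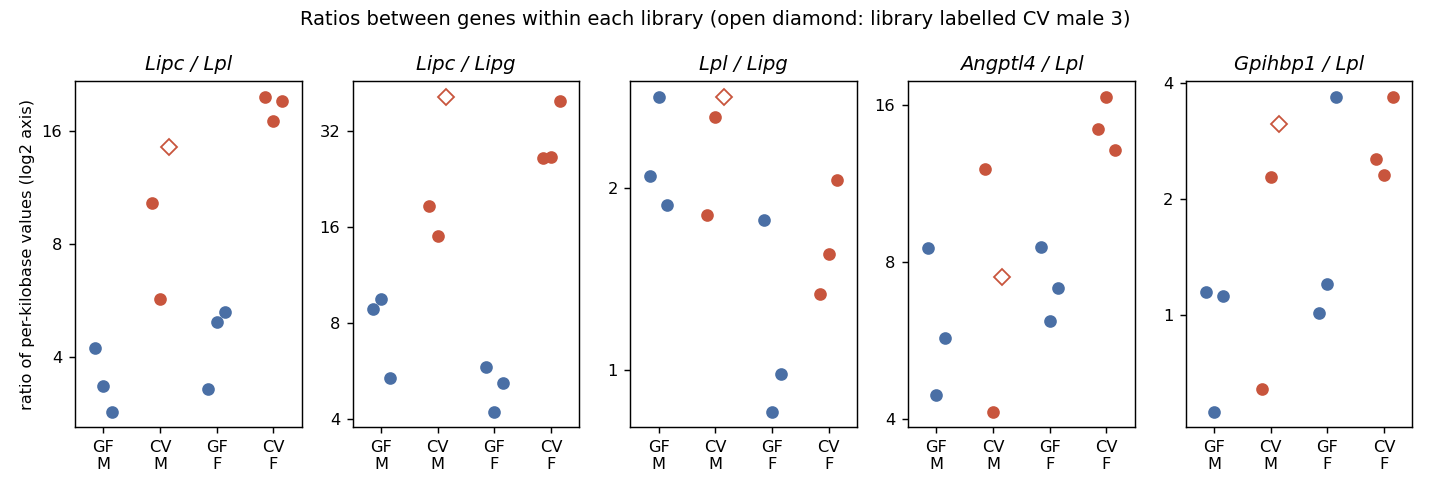
Ratios of per-kilobase values (y axis, log2-spaced) within each of 12 libraries for 5 pairs of genes, by condition and labelled sex (x axis, M male, F female; blue GF, red CV, open diamond the library labelled CV male 3). For Lipc over Lpl and Lipc over Lipg each CV point lies above each GF point, whereas the other ratios overlap.

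Angptl4 and Gpihbp1, which act on Lpl, did not pass the main test over both sexes. Angptl4, on chromosome 17 from 33773750 to 33781830 on the minus strand, read 1947, 1559.7 and 1702 in GF males, 1817, 1503 and 989 in GF females, 2955, 1036 and 1175 in CV males, and 1877, 2332 and 1783 in CV females. CV males were widely spread, with CV male 1 the highest of all libraries and CV males 2 and 3 below every GF male. The change was 0.17 ± 0.25 over both sexes (95% interval -0.35 to 0.69; adjusted p = 0.568), -0.17 in males (adjusted p = 0.731) and 0.51 in females (adjusted p = 0.223). Without CV male 3 it was 0.26 over both sexes (adjusted p = 0.389) and 0.02 in males (adjusted p = 0.978). It was 0.73 (adjusted p = 0.0180) with scaling to all reads, close to the median of all genes under that scaling, and 0.64 (adjusted p = 0.0204) without CV males 2 and 3. The ratio of Angptl4 to Lpl was 4.43 to 8.56 in GF and 4.12 to 16.6 in CV mice, a difference of 0.64 on the log2 scale that did not pass (exact permutation p = 0.065, adjusted p = 0.108). In females alone the ratio was 6.17 to 8.56 in GF and 13.2 to 16.6 in CV mice, and 64.9% of single genes did not overlap there. In males it was 4.43 to 8.50 in GF and 4.12 to 12.1 in CV mice. The ratio was not tested within a sex.

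Gpihbp1, on chromosome 15 from 75596628 to 75599481 on the plus strand, read 131, 98.5 and 166 in GF males, 107, 146 and 255 in GF females, 78.6, 287 and 245 in CV males, and 165, 162 and 249.9 in CV females. The lowest and the highest value both came from CV males. The change was 0.35 ± 0.30 (95% interval -0.28 to 0.98; adjusted p = 0.316), and it was called without CV male 1 (0.64, adjusted p = 0.0265, and 1.04 with adjusted p = 0.0489 in males) and with scaling to all reads (0.91, adjusted p = 0.0149), but was -0.11 (adjusted p = 0.812) with scaling to reads outside the abundant loci. In males it was 0.46 (adjusted p = 0.428), and without CV male 3 it was 0.23 over both sexes (adjusted p = 0.525) and 0.22 in males (adjusted p = 0.746). The ratio of Gpihbp1 to Lpl differed by 0.83 on the log2 scale (exact permutation p = 0.100, adjusted p = 0.125).

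Lipg and Gpihbp1 are genes of endothelium, and 4 of 10 endothelial markers were lower in CV mice with 0 higher. Of all genes tested 28.7% were lower and 32.3% higher. Stab2 changed by -1.87 ± 0.28 and Stab1 by -1.73 ± 0.33, both scavenger receptors of sinusoidal endothelium, whereas Clec4g, another sinusoidal marker, changed by 0.32 ± 0.21 (adjusted p = 0.203). The marker sums ranged from 1872 to 4880.2 in GF and from 906 to 2406 in CV libraries, and no marker was at 0. The split moved with scaling, to 2 higher and 3 lower with all reads and 0 higher and 7 lower with reads outside the abundant loci, and to 0 higher and 8 lower without CV males 2 and 3. The part of endothelial RNA in the Lipg and Gpihbp1 values was not tested.

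Fgf21 was the gene of lowest count. It lies on chromosome 7 from 45613886 to 45615490 on the minus strand, and its promoter window is printed above. Its normalized read counts were 8.95, 21.3 and 24.1 in GF males, 75.5, 21.3 and 9.58 in GF females, 33.8, 48.5 and 39.1 in CV males, and 41.2, 73.9 and 69.8 in CV females. The conditions did not overlap in males, as was the case for 43% of all genes, but GF female 1 exceeded every CV library. These values rest on 5 to 50 reads per GF library and 43 to 116 per CV library. The mean was 26.8 ± 24.7 in GF and 51.1 ± 16.8 in CV mice (SD, n = 6 each). Fgf21 rose 2.32-fold over both sexes (log2 change 1.21 ± 0.39; 95% interval 0.39 to 2.04; adjusted p = 0.0133). Tests on the recovered reads gave smaller changes, 0.92 with edgeR (adjusted p = 0.0376) and 0.97 with DESeq2 (adjusted p = 0.0355). The change was 1.21 in each sex, with adjusted p = 0.108 in males and 0.0721 in females. Without GF female 1 both passed, at 1.98 in females (adjusted p = 0.00321) and 1.21 in males (adjusted p = 0.0427). The male libraries and the male change were the same in that fit, since all groups share an estimate of the spread. Without CV male 3 the change was 1.22 over both sexes (adjusted p = 0.0192) and 1.23 in males (adjusted p = 0.157), and the males again did not overlap.

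The Fgf21 call over both sexes held in all 12 fits that left out 1 library but not with every correction. It was 0.77 (adjusted p = 0.111) with scaling to reads outside the abundant loci, 0.76 (adjusted p = 0.178) after every library was thinned to 1834565 reads outside them, 0.57 (adjusted p = 0.190) after correction for transcript length and GC, and 1.09 (adjusted p = 0.0808) without CV males 2 and 3. The Fgf21 transcript is 951 bases long with 54.5% GC, whereas the median of genes tested was 3351 bases and 49.4% GC.

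The receptors that Fgf21 needs were divided. Klb, the co-receptor β-Klotho, was higher in CV mice by 0.98 ± 0.28 (adjusted p = 0.00600), and Fgfr1, its partner in adipose tissue, changed by -1.18 ± 0.28 (adjusted p = 0.00167). Fgfr4, the main hepatocyte receptor of the family, changed by 0.18 ± 0.25 (adjusted p = 0.542), so that 1 of 5 tested genes of this list was higher and 1 lower. Scaled to all reads, 3 of these were higher and none lower. Scaled without the abundant loci, 2 were lower and none higher. Of all genes tested 32.3% were higher and 28.7% lower under the deposited scaling. Fap, the protease that inactivates Fgf21, was below the filter of a mean of 10 and reached 21.1 in GF and 0.909 in CV libraries.

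The integrated stress response, whose factor Atf4 acts on the amino acid response element, did not move one way. Of its 12 genes 2 were higher in CV mice, Trib3 by 1.10 ± 0.22 and Chac1 by 1.14 ± 0.44, and 6 were lower, among them Ddit3 by -1.56 ± 0.21, Eif2ak4 by -0.99 ± 0.21, Gdf15 by -0.85 ± 0.26 and Atf4 by -0.59 ± 0.18. Of all genes tested 32.3% were higher and 28.7% lower. With scaling to all reads the count was 4 higher and 1 lower (50.3% and 13.7% of all genes). With scaling to reads outside the abundant loci it was 1 higher and 6 lower (18.2% and 41.3% of all genes). Ddit3, which encodes CHOP, stayed lower under each scaling (-1.01 and -2.02), whereas Atf4 was at -0.03 (adjusted p = 0.890) with scaling to all reads.

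**Figure D3:**
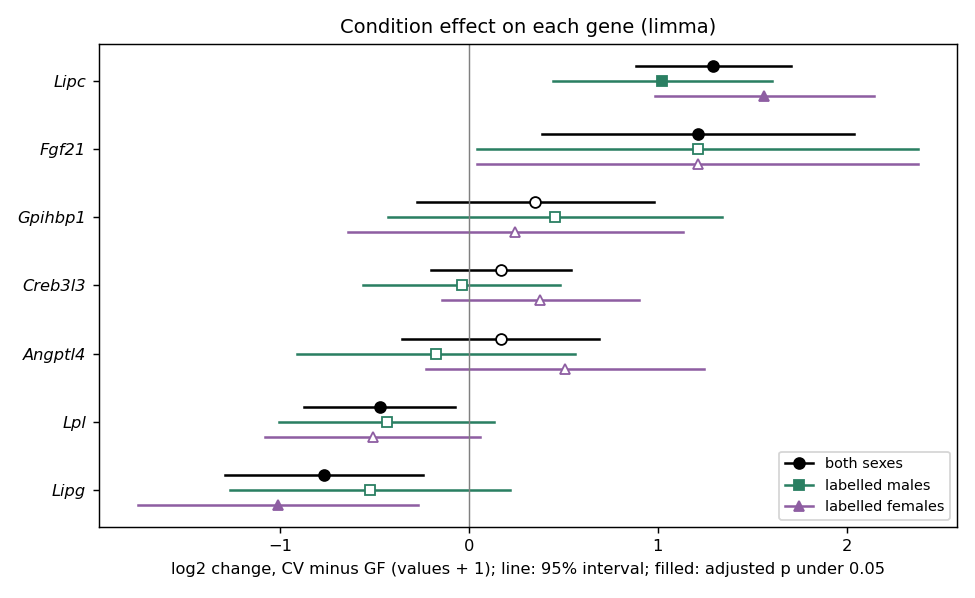
Log2 change between CV and GF mice (x axis) of each gene (y axis), over both sexes and in labelled males and females, with 95% intervals from limma and filled symbols for adjusted p under 0.05. Lipc lies right of 0 in all 3 comparisons, and Lipg left of 0, with intervals that reach past 0 in males.

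Creb3l3, on chromosome 10 from 81084324 to 81098874 on the minus strand, had the highest mean count of the 7 genes. It read 2342, 1992 and 2090.3 in GF males, 2131, 1633 and 2003 in GF females, 2704, 1915 and 1744 in CV males, and 2364, 2595 and 2491 in CV females. All CV females lay above all GF females, where 64.9% of all genes did not overlap, but the difference did not pass the test (0.38 ± 0.25, adjusted p = 0.203). In males the change was -0.04 (adjusted p = 0.925), and over both sexes it was 0.17 ± 0.17 (95% interval -0.20 to 0.54; adjusted p = 0.409). Without CV male 3 these were 0.09 (adjusted p = 0.835) and 0.23 (adjusted p = 0.298). With scaling to all reads it was 0.73 (adjusted p = 0.00506) and with scaling to reads outside the abundant loci -0.29 (adjusted p = 0.161).

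Genes known as targets of Creb3l3 were also counted. Of 8 listed targets 7 were higher in CV mice and 0 lower, with a median log2 change of 1.51. Over all genes tested 32.3% were higher and 28.7% lower. The hepatocyte markers gave a like count, 7 of 8 higher and 0 lower, with a median of 1.29. The part of a general hepatocyte difference in the target counts was not tested. Apoa4, a lipoprotein component of intestine and liver, averaged 67.7 in GF and 1746 in CV mice (log2 change 4.59 ± 0.30, adjusted p = 1.78e-07). Crp, a pentraxin of the acute phase response, changed by 1.80 ± 0.25, Apoc2, the obligate activator of Lpl, by 1.64 ± 0.22, and Apoa5, which enhances Lpl action, by 1.49 ± 0.23. With scaling to reads outside the abundant loci 5 of 8 were higher and 0 lower, and Apoa4 was 4.13 higher. Of 6 genes that process Creb3l3 or belong to its family 1, Creb3l2, was lower (-1.15 ± 0.17) and 0 were higher, while the proteases Mbtps1 (0.08 ± 0.18) and Mbtps2 (-0.52 ± 0.30) did not pass. Scaled to all reads, 3 of these 6 were higher and 1 lower, and scaled without the abundant loci, 3 were lower and none higher. Transcript counts do not measure cleaved Creb3l3 protein.

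The other lists on plasma lipid handling held more higher than lower genes, while 32.3% of all genes tested were higher and 28.7% lower. Of 18 partners of plasma lipolysis 11 were higher in CV mice and 2 lower (7 and 3 with scaling to reads outside the abundant loci), with a median of 0.68. Pltp, the phospholipid transfer protein, rose by 2.91 ± 0.33 from a mean of 70.2 to 539, Lsr, a receptor for remnant lipoproteins, by 2.13 ± 0.29, Sdc1, a heparan sulfate proteoglycan that binds remnants, by 1.96 ± 0.24, and Lcat, which esterifies plasma cholesterol, by 1.47 ± 0.18. Lmf1, the chaperone that the lipases need to mature, rose by 1.12 ± 0.23. Sel1l, which aids the exit of Lpl from the endoplasmic reticulum, changed by -0.47 ± 0.20 and Pcsk5, a proprotein convertase, by -0.53 ± 0.19, but with scaling to all reads they stood at 0.09 and 0.03.

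Of 16 intracellular lipases and lipid droplet proteins 15 were higher in CV mice and 0 lower, with a median of 1.28. Hepatocyte markers moved alike, with 7 of 8 higher and a median of 1.29. Cideb and Plin2, of the droplet surface, changed by 2.38 ± 0.25 and 1.95 ± 0.24, Ces1d, a carboxylesterase, by 2.38 ± 0.25 and Pnpla2, adipose triglyceride lipase, by 1.66 ± 0.19, while Ces3a did not pass (0.48 ± 0.28, adjusted p = 0.140). With scaling to reads outside the loci 11 of 16 were higher and 0 lower. Among PPARα and fasting genes, a group that Angptl4 and Fgf21 also belong to, 12 of 16 were higher and 2 lower. Over all genes tested these shares were 32.3% and 28.7%, and the part of a general hepatocyte difference was not tested. Vnn1, pantetheinase, rose by 2.69 ± 0.22, Acot1, an acyl-CoA thioesterase, by 2.49 ± 0.23 and Cyp4a10, a fatty acid hydroxylase, by 1.79 ± 0.27, whereas the coactivator Ppargc1a changed by -2.36 ± 0.20 and Ppard by -0.98 ± 0.37. Ppara itself changed by 0.30 ± 0.17 (adjusted p = 0.145). Plin2 stands in both of these lists, and Apoa5, Apoc2 and Cidec each stand in more than 1 list, so the counts are not independent.

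Few relatives of the named genes passed the filter on low values. Of 3 tested angiopoietin-like genes Angptl6 (1.54 ± 0.20) and Angptl2 (1.14 ± 0.20) were higher in CV mice, and 2 more, Angptl1 and Angptl7, were below the filter. Angptl8, a feeding-induced partner of this family in the control of Lpl, changed by 0.05 ± 0.29 over both sexes (adjusted p = 0.894). It was 1.09 higher in males (adjusted p = 0.0542) and 0.99 lower in females (log2 change -0.99, adjusted p = 0.0482), and the difference between these effects did not pass the test (2.08 ± 0.58, adjusted p = 0.417). Of 6 further members of the pancreatic lipase family only Pla1a, a phosphatidylserine phospholipase, was tested, and it was higher by 0.75 ± 0.17 (adjusted p = 0.00134), but not with scaling to reads outside the loci (0.29, adjusted p = 0.115).

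**Figure D4:**
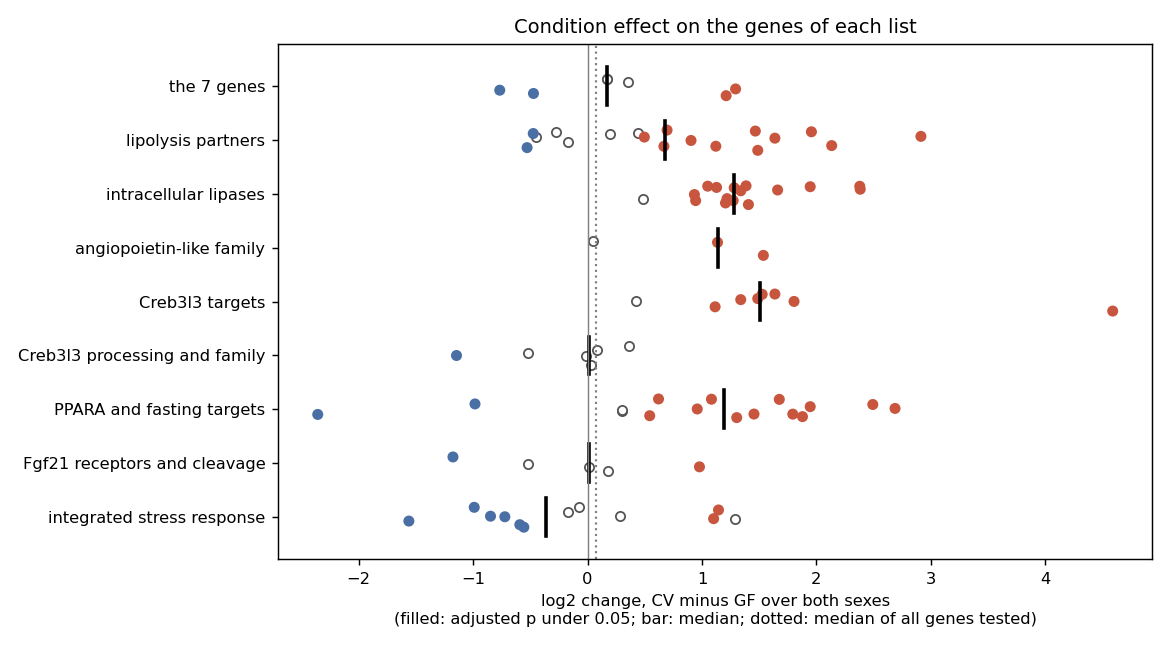
Log2 change between CV and GF mice over both sexes (x axis) of every tested gene of 9 lists (y axis), filled where the adjusted p was under 0.05, with the list median as a bar and the median of all genes tested (0.07) as a dotted line. The list medians run from -0.36 for the integrated stress response to 1.51 for the Creb3l3 targets.

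The condition effect did not differ between the sexes for any of the 7 genes (limma interaction, adjusted p from 0.549 to 0.99976). No gene of the 11782 passed this test (0%), while 1382 (11.7%) and 0 of the 7 had an unadjusted p under 0.05. edgeR and limma-voom called 0 genes as well, and DESeq2 called 24, of which 0 were among the 7. The limma count over all genes was 291 (2.47%) without CV male 1, 4 without CV male 3 and 11 with scaling to all reads, and 0 of the 7 passed in these fits. The intervals were wide: the difference between males and females lay between -1.36 and 0.28 for Lipc and between -1.65 and 1.65 for Fgf21. Between the sexes, over both conditions, 0 of the 7 genes passed with limma, edgeR or DESeq2, beside 1.16% of all genes with limma, and 1 of the 7 had an unadjusted p under 0.05. This was Lpl, higher in libraries labelled male by 0.61 ± 0.19 (unadjusted p = 0.00502, limma adjusted p = 0.186), with GF means of 364 ± 76.7 in males and 247 ± 67.1 in females and CV means of 271 ± 65.4 and 168 ± 6.36 (SD, n = 3 each). Without the library labelled CV male 3, the Lpl difference was 0.72 (adjusted p = 0.0789).

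Levels per kilobase, which can be compared between genes, ordered the 7 as Creb3l3 (945 normalized reads per kilobase, mean of 12 libraries), Angptl4 (521), Lipc (488), Gpihbp1 (105), Lpl (63.8), Fgf21 (40.9) and Lipg (37.3). Creb3l3 stood at the 96.5th and Lipg at the 55.9th percentile of 11731 genes with a length. Creb3l3 exceeded Angptl4, and Lipc exceeded Gpihbp1, in 12 of 12 libraries, but the order of 2 other neighbouring pairs turned with condition. Angptl4 exceeded Lipc in 6 of 6 GF and 1 of 6 CV libraries, and Fgf21 exceeded Lipg in 1 of 6 GF and 5 of 6 CV libraries. Lpl exceeded Fgf21 in 5 of 6 GF and 3 of 6 CV libraries. In GF mice the mean per-kilobase level of Angptl4 was 479.5 ± 101 and that of Lipc 283 ± 66.1, and in CV mice they were 562 ± 217 and 693 ± 133 (SD, n = 6 each). The place of Lpl depended on the length used, as its level was 25.1 per kilobase of all annotated exons, below Lipg at 29.9.

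Across the 12 libraries the 7 genes formed 21 pairs. Angptl4 and Creb3l3 were the pair most alike, with Pearson r = 0.77 (permutation p = 0.00328, adjusted p = 0.0689) and Spearman rho = 0.85 (permutation p = 7e-04, adjusted p = 0.0147). The r was again 0.77 without the 2 libraries farthest from the median of Angptl4, 0.39 within GF mice and 0.93 within CV mice. Angptl4 and Gpihbp1 ran opposite, with r = -0.73 (permutation p = 0.0071, adjusted p = 0.0745) and rho = -0.64 (permutation p = 0.0278, adjusted p = 0.292), and r was -0.52 without the 2 farthest libraries, -0.77 within GF and -0.88 within CV mice. Fgf21 and Creb3l3 gave r = 0.28 (permutation p = 0.385, adjusted p = 0.485) and rho = 0.35 (permutation p = 0.266, adjusted p = 0.444), and r was 0.50 without the 2 libraries farthest in Fgf21.

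The genes whose log2 values ran most like each of the 7 were taken from 10982 protein-coding genes, as a description over 12 libraries that share condition and depth. Lipc was followed by Hadh, a mitochondrial β-oxidation enzyme (r = 0.99), Agt, angiotensinogen (r = 0.99), and Mrfap1 (r = 0.99). Creb3l3 was followed by Mecr, of mitochondrial fatty acid synthesis (r = 0.94), Gusb (r = 0.94) and Ap1m1 (r = 0.93), and Angptl4 by Ppp1r3b, a glycogen-targeting phosphatase subunit (r = 0.90), Zc3h12d (r = 0.89) and Glyr1 (r = 0.89). Gpihbp1 was most like Clec4g (r = 0.92), Ada, adenosine deaminase (r = 0.90), and Icam2, an endothelial adhesion molecule (r = 0.87). Lipg was most like Cd3d, a T cell receptor subunit (r = 0.91), Brox (r = 0.90) and Prkci (r = 0.90), and Lpl was most like Cmah (r = 0.92), Zfp652 (r = 0.91) and Eif4a2 (r = 0.90). Fgf21 was most like Dnajc18 (r = 0.91), Hmox1, heme oxygenase (r = 0.88), and Folr2, a macrophage folate receptor (r = 0.86). Within the 4 groups r fell to 0.71 for Folr2 and 0.75 for Eif4a2 and stayed at 0.94 for Clec4g and 0.98 for Agt.

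**Figure D5:**
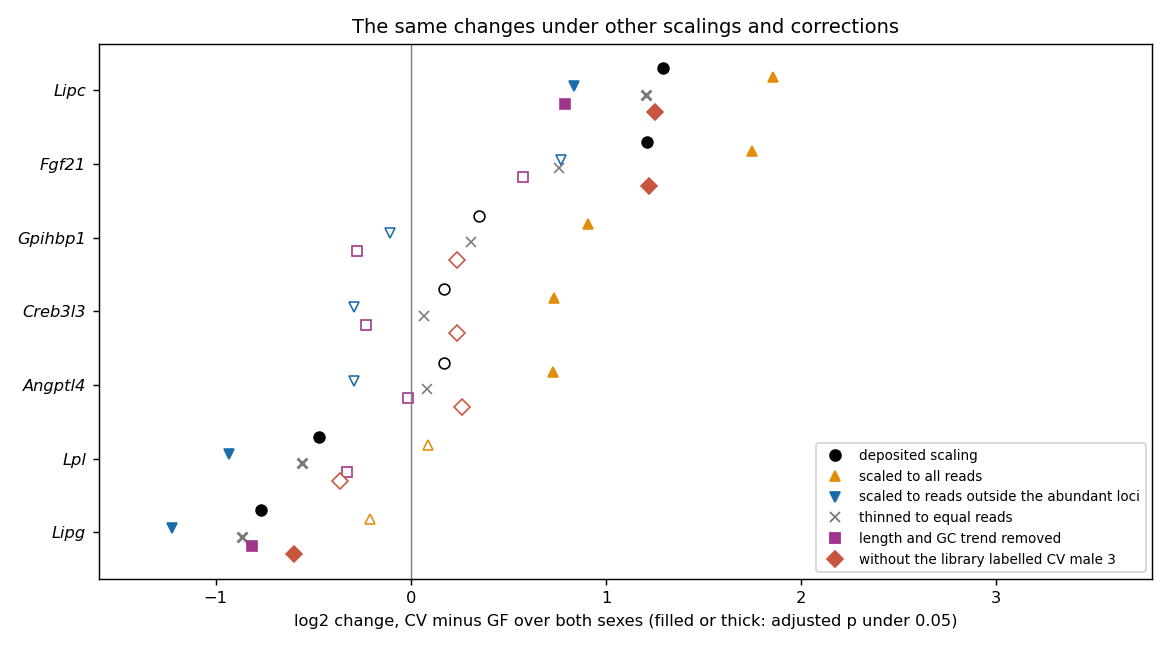
Log2 change between CV and GF mice over both sexes (x axis) of each gene (y axis) under the deposited scaling and 5 other settings, with filled or thick symbols for adjusted p under 0.05. Lipc stays right of 0 and past the threshold in all 6, while Angptl4, Creb3l3 and Gpihbp1 cross 0 between scalings.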

How the data were processed

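Liver RNA-seq libraries of 12 mice (stranded mRNA kit, Illumina HiSeq) were grouped by the condition, sex and replicate number in their titles. The paper named for the series describes another experiment and gave no methods. The submitters' processing notes name HTSeq 0.6.1p1, DESeq2 and build GRCm38, and the aligner and annotation are not given in the sources used here. The deposited unit is a signal, gene counts that the authors had scaled with a single size factor per library. All values (100%) were whole multiples of 1 read within 0.01 reads, and the step matched a median-of-ratios factor over 12512 genes. Whole reads were therefore recovered.

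The main test was limma 3.58.1 (R 4.3.3) on log2(value + 1), for 11782 genes with a mean value of at least 10. Adding 1 shrinks changes of low genes, but the Fgf21 change was larger with limma (1.21) than with edgeR (0.92) or DESeq2 (0.97). The fit had 1 mean per group of condition and sex, an intensity trend and Benjamini-Hochberg adjustment at 0.05. The count tests edgeR 4.0.16 and DESeq2 1.42.0 on the recovered reads were alternatives. Over both sexes edgeR called 7634 of 12555 genes and DESeq2 8440 of 22953. Ratios were tested by exact permutation of condition within labelled sex, with all relabellings enumerated in Python 3.11.15. Correlations were tested by permutation over all 12 libraries, without regard to condition or sex. GENCODE release 21 gave coordinates, lengths and the missing names, and listed 40254 of the 41128 genes. Scaling, filters, pseudocounts, thinning, a length and GC trend, read-share covariates, a replicate block and single libraries were varied. The limma fit was tested on simulated data.

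The 7 genes and the gene lists were chosen with earlier results of these data known. Beyond the 7 genes, up to 4 higher and 4 lower genes of each list were to be named by adjusted p, and the 3 most alike genes per member by Pearson r. Other genes named were chosen after their values were seen. Of the marker lists not described in the report, stellate cell markers held 2 higher and 1 lower of 8, and of 7 exocrine pancreas markers Cela1 alone was tested and was higher (1.30 ± 0.25). RefSeq promoter windows were found for 3 of the 7 genes. Lipg was not looked up. P-values measure the spread between mice of 1 facility.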

Additional observations from a re-analysis of the deposited data

Results flagged for a closer look

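In CV mice the Lipc value of CV male 2 (830.0) was far from the other 5 libraries, which lay between 1317 and 1507. Its gap to the nearest library was 0.774 of the range on the log2 scale (0.720 on the linear scale), above the critical value of 0.625 of Dixon's test for 6 samples. Among the 14 sets tested (7 genes in each condition) chance alone flags about 1 in 20. CV male 2 also had a share of abundant loci of 21.4% of reads, beside 5.39 to 21.9% over CV libraries. The library at 21.9%, labelled CV male 3, had a Lipc value of 1317. The part of the share in the Lipc value of CV male 2 was not tested. Without CV males 2 and 3 the Lipc change stayed called.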

How the results depend on the processing

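Counts of called genes among the 7 were compared over 31 settings, 28 planned and 3 added after seeing the data. The count over both sexes (4) was within 1.5 times in 26 settings, in males (1) in 23, in females (2) in 24, for the interaction (0) in 31 and between the sexes (0) in 29 of 30. These counts do not follow which genes were called or in which direction. Over both sexes scaling to all reads gave 5 higher and 0 lower, beside 2 higher and 2 lower in the main fit. With either read-share covariate the counts over both sexes, in males and in females were 0. Of all genes the mitochondrial rRNA share gave 0 over both sexes, 3 in males and 0 in females. The share of the abundant loci gave 7, 13 and 0. Scaling to all reads gave 5 in females with CV male 3 (by label), beside 59% of all genes, and 5 without it, beside 59.1%. Between the sexes it gave 1 when that library was left out, beside 1.93% of all genes. Scaling to reads outside the abundant loci gave 2 in males, beside 26.5% of all genes, and 0 without that library, beside 20.5%. Removing the length and GC trend gave 2 over both sexes, beside 56.3% of all genes. A threshold of 0.01 gave 1 over both sexes, 0 in males and 1 in females, beside 48.2%, 11.8% and 41.8%. Leaving out single libraries gave 3 to 5 over both sexes, 0 to 2 in males and 1 to 3 in females. The shares of all genes called were then 56 to 63.2%, 13.6 to 33% and 46.8 to 59.1%. Lpl reversed with scaling to all reads (0.0861, and 0.21 when CV male 3 was also left out), and Fgf21 reversed with the abundant-locus covariate (-1.59). The cause was not tested. With a mean value of at least 50 Fgf21 was not tested. After group means were removed, same-numbered samples correlated at -0.228 to 0.0188 and differently numbered samples at -0.186 to 0.209. With 3 mice per group this cannot tell whether the numbers pair mice. With the replicate block 6827 genes were called beside 7194, and of the 7 genes only Lpl lost its call (adjusted p = 0.0626). Depth limits Fgf21 most, at 5 reads in its lowest library.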
